A study of Mus musculus with 4 samples.

Results

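The comparison set RNA precipitated with an antibody to Musashi1 (Msi1; Millipore AB5977) against RNA precipitated through an hnRNP (heterogeneous nuclear ribonucleoprotein), both from intestinal epithelium of adult C57BL/6 mice. Its members were the 2 arrays carrying these antibody labels, of 4 arrays in all, and the value for each gene was the log2 signal on the Msi1 array minus that on the hnRNP array. The other 2 arrays were a precipitation with nonspecific IgG and the input RNA, which received no antibody. In all groups the gut had been crosslinked with ultraviolet light, so that proteins stayed bound to their RNA, the RNA was random primed, and 100 ng was labelled for Affymetrix Mouse Gene ST arrays. Each array carried RNA combined from 2 experiments and each group had 1 array. Differences are therefore given by size, with no test and no measure of spread between animals. The sources used here do not say which hnRNP the antibody bound.

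Musashi1 is found in progenitor cells of gut and brain. It binds short UAG-containing motifs, mostly in the untranslated ends of messenger RNAs, and is best known for holding back translation of the Notch inhibitor Numb. The hnRNPs are a large class of abundant nuclear proteins that coat newly made transcripts and act in splicing, export and stability of RNA. A precipitation with an hnRNP antibody is thus a second RNA-binding protein against which that of Msi1 can be read.

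Of 19937 genes measured, 10673 exceeded the detection floor on at least 1 of the 2 arrays. The floor of an array was the 95th percentile of 1208 probe sets for olfactory and vomeronasal receptors, genes that gut epithelium should not express, and stood at 4.74 on the Msi1 array and 5.17 on the hnRNP array. The Msi1 array had 9527 genes above its floor and the hnRNP array 6560. The labelled tissue was borne out on the input array, where 27 of 27 enterocyte markers exceeded the input floor of 4.09. The epithelial adhesion genes Epcam and Cdh1 read 9.60 and 10.40 there. Of markers of other tissues on the array, 10 of 14 for immune cells, 5 of 14 for stroma and muscle and 1 of 8 for enteric neurons and glia exceeded the input floor.

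Far more genes were higher in the Msi1 precipitation than in the hnRNP precipitation, and the differences in that direction were larger. In all, the Msi1 signal exceeded the hnRNP signal by 2-fold or more in 1863 of the 10673 genes (17.5%) and fell short of it by as much in 831 (7.79%). Among the higher genes 284 differed by 8-fold or more on signals as deposited, against 0 of the lower genes, of which 16 reached 4-fold. Only 42 of the 284 and 2 of the 16 were above the floor on both arrays. The median over all 10673 genes was −0.02. Of the 1863 higher genes, 374 were above the floor on both arrays and 1489 lay below it on the hnRNP array. Those 1489 were called on signals as deposited, and their folds are lower bounds only with hnRNP raised to its floor. Of the 831 lower genes, 302 were above the floor on both arrays. With values raised to the floor of their array, 1165 genes were higher and 432 lower. Of 210 higher genes with several probe sets, 109 had more than 1 past 2-fold in that direction and 90 had every one. Of 68 such lower genes, 15 had more than 1 and 5 had every one.

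The receptor genes show how far the 2 arrays differ where no RNA is expected. Over all 1194 of them, with no floor applied, 1.68% passed 2-fold towards Msi1 and 12% towards hnRNP, and the median was −0.31. The share of receptors lower in Msi1 was thus larger than the 7.79% of all detected genes. The split between directions also depended on the scaling. Higher genes made up 69.2% of the genes called, 79.7% after median centring, 81.2% after loess centring and 57.1% after quantile normalization. Median centring moved the median of all genes by 0.12 and loess centring moved it by 0.19, so differences of that size have no settled sign.

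**Figure D1:**
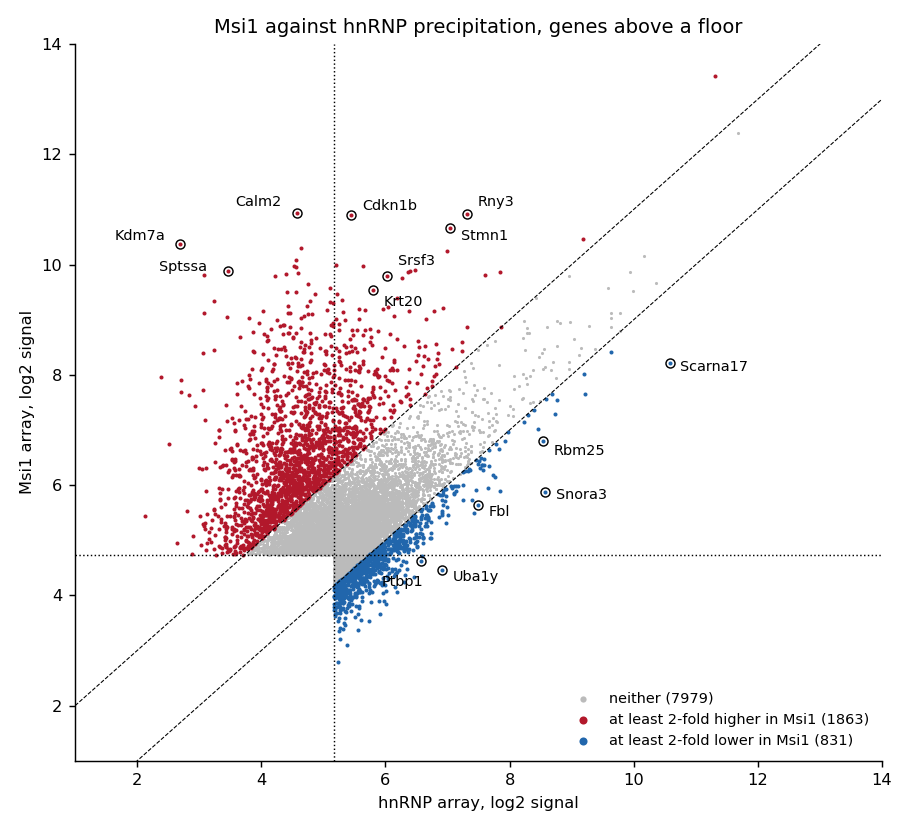
Log2 signal of each gene above the floor of at least 1 array, with the hnRNP array on the horizontal and the Msi1 array on the vertical axis; dotted lines mark the 2 floors, 4.74 for Msi1 and 5.17 for hnRNP, dashed lines mark 2-fold differences, and circles mark named genes. The 1863 genes higher in Msi1 spread up to signals above 10 while 1489 of them sit left of the hnRNP floor, and the 831 lower genes lie close to the 2-fold line, apart from a few such as Scarna17 and Snora3.

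Among genes above the floor on both arrays, Cdkn1b showed the largest difference. Cdkn1b, which encodes the cell cycle inhibitor p27 and is a published Musashi target, read 10.90 in Msi1, 5.44 in hnRNP, 5.38 in IgG and 4.37 in input, a 43.8-fold excess over hnRNP. On this probe set the Msi1 array stood alone, with the other 3 arrays near their floors. The second probe set of Cdkn1b read 6.24 in Msi1, 4.76 in hnRNP, 5.65 in IgG and 6.89 in input, a difference of 1.49 between the antibodies, or less with hnRNP raised to its floor. The size of the difference rests on 1 of the 2 probe sets.

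Cox7b, a subunit of cytochrome c oxidase, read 9.99 in Msi1, 5.21 in hnRNP, 5.28 in IgG and 10.92 in input (27.5-fold), and differed by 2.55 on its other probe set. Rab10, a small GTPase of membrane traffic, read 9.47, 5.22, 5.50 and 9.43 on the same arrays, a difference of 4.25. Serp1, which protects membrane proteins during their translocation, read 9.35, 5.29, 5.77 and 9.72 (16.7-fold). In each of these genes the hnRNP and IgG signals were close together and low, and the Msi1 signal was near that of input. Pcnp, which encodes a nuclear protein, differed by 4.32 on one probe set and 1.99 on the other. Nars, the asparaginyl-tRNA synthetase, and Atp5g3, a subunit of the ATP synthase, differed by 3.65 and 3.56.

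The remaining leading genes included signalling, splicing and noncoding RNA genes. Erbin, a scaffold of ErbB2 signalling, differed by 3.81 and Tbl1xr1, a part of corepressor complexes, by 3.80 and 2.52 on its 2 probe sets. Krt20, a keratin of differentiated gut epithelium, read 9.54 in Msi1, 5.80 in hnRNP, 6.09 in IgG and 10.79 in input (13.4-fold). The microtubule regulator gene Stmn1 read 10.67, 7.04, 7.39 and 8.91 (12.3-fold), and Rny3, a small cytoplasmic Y RNA, read 10.92, 7.31, 7.38 and 10.32 (12.3-fold). Stmn1 and Rny3 were well above the floor in every precipitation, unlike most of the genes in this group. Gas5, whose introns hold small nucleolar RNAs, differed by 3.63 on 1 of its 4 probe sets. The others, at 0.24, 0.19 and −0.56, were below the floor on both arrays.

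Other genes were bright in Msi1 and below the floor in hnRNP, so that only a lower bound can be given. Calm2, one of the calmodulin genes, read 10.93 in Msi1 and 4.57 in hnRNP and was at least 54.3-fold higher, and its other probe set differed by 4.28. Kdm7a, a histone demethylase gene, read 10.38 and 2.69 (at least 37.1-fold), and 6.62 and 4.98 on its other probe set. Clec2h, a C-type lectin gene, was at least 35.1-fold higher, and Ppp4r2, a subunit of protein phosphatase 4, at least 30.1-fold. The small GTPase gene Arf6 was at least 28.2-fold higher and the gene of the actin-severing protein destrin, Dstn, at least 27.7-fold. Sptssa, a subunit of serine palmitoyltransferase, Snrpe, a core spliceosomal protein gene, the kinase gene Stk17b and the HMG-box gene Tox4 were at least 26.3-fold, 25.6-fold, 25.3-fold and 25.1-fold higher. The IgG signals of these 10 genes ran from 2.03 for Tox4 to 5.54 for Clec2h, where the IgG floor was 5.26.

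The largest difference towards hnRNP among genes above both floors, leaving Snora genes unranked, was that of Scarna17. Scarna17, a Cajal body RNA that guides modification of spliceosomal RNA, read 10.58 in hnRNP, 8.21 in Msi1, 5.49 in IgG and 8.91 in input, and was 5.16-fold lower in Msi1 than in hnRNP. Both antibodies were above IgG for this RNA, and the hnRNP array was the highest of the 4. Snora3, a small nucleolar RNA of the box H/ACA class, read 8.57 in hnRNP, 5.87 in Msi1, 3.03 in IgG and 10.37 in input, a difference of −2.70. Its second probe set read 4.09 in hnRNP and 4.82 in Msi1 and differed by 0.74, so the direction rests on 1 probe set.

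The protein-coding genes furthest below hnRNP differed by less. Fbl, which encodes the nucleolar methyltransferase fibrillarin, read 7.49 in hnRNP, 5.64 in Msi1, 6.67 in IgG and 7.36 in input (3.58-fold) and differed by −0.73 on its other probe set. Rbm25, a splicing regulator, read 8.54 in hnRNP and 6.80 in Msi1 on the probe set with the highest mean. Its 4 probe sets disagreed, with differences of −1.74, −1.13, 1.26 and 2.30, so no direction can be given for the gene. Tmsb10, a thymosin, differed by −1.70 on one probe set and 0.84 on the other. Bckdk, the kinase of branched-chain ketoacid dehydrogenase, read 6.71 in hnRNP, 5.04 in Msi1, 5.27 in IgG and 7.01 in input (3.18-fold), and Nme2, a nucleoside diphosphate kinase, 6.97, 5.31, 5.96 and 7.98 (3.16-fold).

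Several other genes of this end were as bright in IgG as in hnRNP or dim in input. Prp2, a proline-rich protein gene, read 7.84 in hnRNP and 7.95 in IgG but 5.89 in Msi1 and 5.85 in input. Pramel27 read 7.42 in hnRNP, 6.73 in IgG and 4.55 in input, and the Wnt antagonist gene Dact3 read 7.39, 6.34 and 4.81. Amer2 (−1.63), Gcnt7 (−1.64) and Cox8c (−1.69), a testis-type subunit of cytochrome c oxidase, had input signals between 4.26 and 4.32, near the input floor. Of these 6 genes Prp2 had the highest input signal, and the other 5 read between 4.26 and 4.81.

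**Figure D2:**
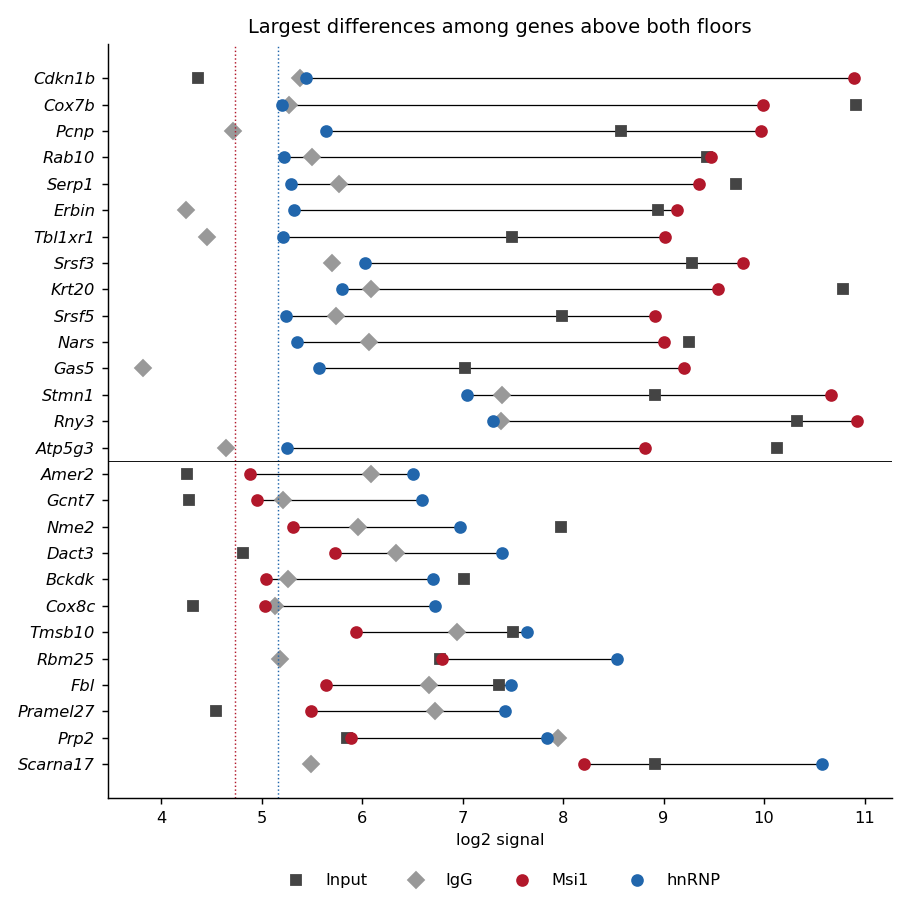
Log2 signal on the 4 arrays for the 15 genes with the largest positive difference (above the line) and the 12 with the largest negative difference (below it) among genes above both floors; squares are input, diamonds IgG, and red and blue circles Msi1 and hnRNP, with dotted lines at the Msi1 floor of 4.74 and the hnRNP floor of 5.17. In the upper set the hnRNP and IgG signals lie mostly together between 4 and 6 with Stmn1 and Rny3 above 7, and in the lower set the hnRNP signal is the highest of the 4 arrays except in Prp2, Nme2 and Bckdk.

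Among the 10 genes with the largest bounds above the floor in hnRNP alone, Ptbp1 had the highest input signal. Ptbp1, the polypyrimidine tract-binding protein or hnRNP I, read 6.58 in hnRNP, 4.62 in Msi1, 5.36 in IgG and 9.28 in input and was at least 3.59-fold lower in Msi1. Its second probe set was below the floor on both arrays, at 3.99 in hnRNP and 4.65 in Msi1. Uba1y, a Y-linked ubiquitin-activating enzyme gene, was at least 4.49-fold lower in Msi1 on 1 of 3 probe sets and read 3.50 in input. The potassium channel gene Kcnj14 was at least 3.31-fold lower, and Masp1, Ndufa4l2, Gdf11, Hcn2, Gprc5a, Fbxo4 and Sox18 were between 2.75-fold and 3.06-fold lower as bounds. Of these last 8 genes, Gprc5a, Fbxo4, Sox18 and Hcn2 exceeded the input floor of 4.09, by 1.17 or less.

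Of the 6560 genes above the hnRNP floor, 165 read at least 2-fold higher on the hnRNP array than on the Msi1 and IgG arrays. Olfactory receptor genes were among the 165 (Olfr1423, Olfr559, Olfr361, Olfr767 and Olfr571), of 61 receptor genes above that floor. The set thus takes in genes where no RNA is expected. Input signals of 87 of the 165 were above the input floor. For 60 the hnRNP signal was 2-fold or more over its own floor. Those with input signals at least 4-fold over the input floor numbered 40 and, beside the RNAs and genes above, took in Uxt, a prefoldin-like chaperone gene that read 6.15 in hnRNP, 4.15 in Msi1, 4.44 in IgG and 8.58 in input. The other probe set of Uxt was below the floor on both arrays, at 4.65 in hnRNP and 3.90 in Msi1. Timm50, a part of the mitochondrial import channel, and Nop2, a nucleolar RNA methyltransferase gene, had bounds of −1.21 and −1.36 with Msi1 raised to its floor. The ribosomal protein genes Rpl21 and Rps19 differed by −1.56 and −1.23, and Rpl21 was negative on all 9 of its probe sets, from −0.14 to −4.76. Its sets at −0.14 and −0.92 were below the floor on both arrays. The −4.76 came from an Msi1 signal of 1.72, below the Msi1 floor. On its sets at −2.57 and −1.69, hnRNP read 10.02 and 6.16 and IgG 9.89 and 6.22. Uxt, Timm50 and Nop2 were chosen after their values were seen.

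How a gene compared between the antibodies went with its signal in input RNA, an array that the difference does not use. The 10673 detected genes were sorted by input signal into 5 bins of equal size. In the lowest bin 1.55% of genes passed 2-fold towards Msi1 and 19.7% towards hnRNP, and the median difference was −0.52. The share higher was 3.75%, 12.6% and 24.8% in the next bins and 44.6% in the highest, where 1.97% were lower and the median was 0.85. Median hnRNP signals ran from 5.18 to 5.47 over the 5 bins and those of IgG from 5.11 to 5.40, while that of Msi1 was 4.88 in the lowest and 6.09 in the highest bin. Among genes above the floor on both arrays the higher share went from 0.0923% to 24.7% in the same order. The bins order probe sets by their own brightness, which also reflects the probes.

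**Figure D3:**
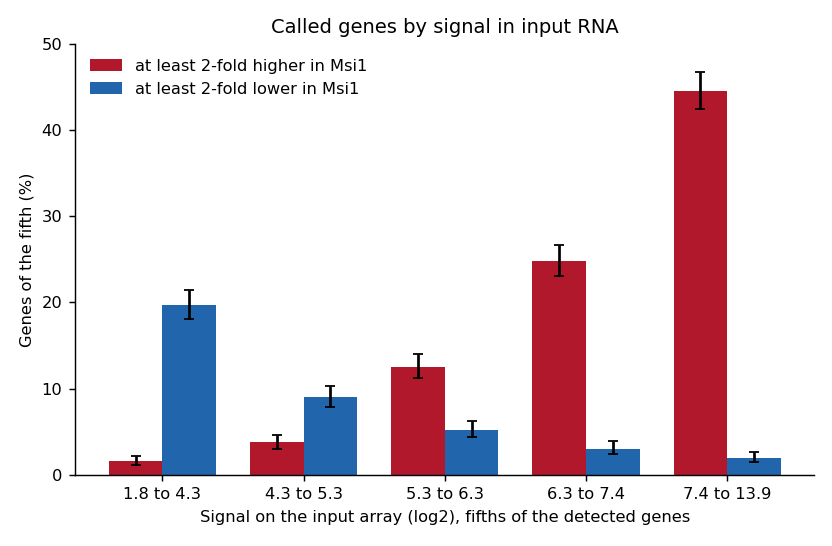
Percentage of genes at least 2-fold higher (red) or lower (blue) in Msi1 than in hnRNP, for 5 equal bins of the 10673 detected genes by log2 signal on the input array; error bars are 95% Wilson binomial intervals over genes and do not describe spread between samples. The red bars climb from 1.55% to 44.6% and the blue bars drop from 19.7% to 1.97%.

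The called genes also differed in what kind of RNA they encode and where they were seen on the other arrays. Of the 1863 higher genes, 98.9% exceeded the floor in input and 26.1% in IgG, and of the 831 lower genes 59.0% and 52.1% did. Over all detected genes these shares were 85.6% and 48.1%. By RefSeq biotype, 18.0% of 10178 protein-coding genes were higher and 7.44% lower, and of 265 long noncoding RNA genes 4.91% were higher and 15.5% lower. Receptor genes above a floor, where no RNA is expected, had 4.40% higher and 19.8% lower. The median genomic span was 28.6 kb for higher, 11.8 kb for lower and 17.7 kb for the other genes. The brightest gene called was Rn7sk, the 7SK RNA that holds the elongation factor P-TEFb and was chosen after its value was seen. It read 13.42 in Msi1, 11.31 in hnRNP, 11.98 in IgG and 13.92 in input.

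The gene groups below are described by counts and medians, beside 17.5% of all detected genes higher and 7.79% lower. For a gene below the floor on 1 array, the difference is given as a bound, with the dimmer value raised to its floor. Where several probe sets of a gene are compared, their differences are as deposited unless called bounds. Under such bounds 10.9% of all detected genes were higher and 4.05% lower, and a call is said to be kept where the bound passes 2-fold. A gene detected on the Msi1 array alone entered a group through the antibody with which it was bright.

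Messenger RNAs of absorptive enterocytes were higher in the Msi1 precipitation. Of 26 markers detected 15 (57.7%) were at least 2-fold higher, all 15 as bounds, and 0 were lower. The median difference was 1.60, or 1.38 with bounds, beside −0.02 for all genes. The difference compares precipitations, so it measures neither the number of enterocytes nor their RNA content. Fabp2, an intestinal fatty acid-binding protein gene, read 9.78 in Msi1, 4.22 in hnRNP, 5.22 in IgG and 11.07 in input and was at least 24.6-fold higher in Msi1. The brush border peptidase gene Anpep differed by 3.04, and Sis, the sucrase-isomaltase gene, and Dpp4 had bounds of 3.17 and 2.40. Apolipoprotein and chylomicron genes followed, with Apob at 2.44, Mttp at 2.25 and Apoa4 at 2.22. The lowest were Treh, the trehalase gene (bound −0.85), Prap1 (−0.75) and the fructose transporter Slc2a5 (bound −0.48). Of the markers, 24 lay in the highest bin of input signal, and 62.5% of these were higher in Msi1 beside 44.6% of all genes there.

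Secretory lineages differed among themselves. Of 10 goblet cell markers 7 (70.0%) were higher, all 7 as bounds, and 0 lower (median 1.44). Of the 8 in the highest bin of input signal 6 were higher, 75% beside 44.6% of all genes there. The mucus gene Zg16 led, with 9.86 in Msi1, 6.36 in hnRNP, 7.63 in IgG and 12.08 in input. Agr2 and Clca1 had bounds of 1.91 and 1.41, while Spink4 and the transcription factor Spdef were at −0.60 and −0.61. Of 8 Paneth cell markers 5 were higher and 1 lower, but 7 of them were detected on the Msi1 array alone, so the count describes genes that entered through that array. Defa24, an alpha-defensin, read 8.78 in Msi1, 3.87 in hnRNP and 6.85 in IgG, and the antimicrobial lectins Reg3b and Reg3g had bounds of 3.30 and 2.88. The lysozyme gene Lyz1 read 7.11 in Msi1 and 4.61 in hnRNP, but 8.10 in IgG and 13.89 in input, so the control precipitation held more signal than either antibody. The angiogenin gene Ang4, the Paneth marker above both floors, was lower in Msi1 (−1.19).

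Markers of rarer epithelial cells stayed near the median of all genes, but few of them lay in the highest bin of input signal. Those there were 2 of 14 stem cell, 2 of 12 enteroendocrine and 0 of 8 tuft cell markers. The 2 stem cell markers in that bin were higher in Msi1 and the 2 enteroendocrine ones were not. Of 14 stem cell markers 3 were higher, the crypt glycoprotein gene Olfm4 (bound 2.85), the cotransporter Slc12a2 (bound 1.68) and Bmi1, whose bound of 0.49 does not keep the call, and 0 were lower, with a median of −0.08. Of 12 enteroendocrine markers 0 were higher or lower, and they ranged from −0.67 for Pyy to 0.79 for Chgb. Of 8 tuft cell markers Rgs13, a regulator of G protein signalling, was higher (bound 1.28), and Pou2f3 and Sh2d6, both above both floors, were at −0.87 and 0.38.

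Markers of other cell types gave little signal with either antibody. Among 6 immune markers detected of 14, 1 was higher and 2 lower, and with bounds 0 kept a call. These were the class II gene H2-Ab1 (bound 0.24) and the B cell receptor genes Cd79a (bound −0.64) and Cd79b (bound −0.93). Cd79a read 5.38 in hnRNP and 5.88 in IgG but 2.90 in input. The immunoglobulin kappa gene Igkv8-30 read 6.33 in hnRNP, 5.28 in Msi1, 6.43 in IgG and 3.81 in input, and Igkv4-55, the other of 2 immunoglobulin genes detected of 12, differed by −0.54. The summed signal of the 14 immune markers was 10.97 in input and between 8.22 and 8.68 on the 3 precipitation arrays. Of 7 stromal and muscle markers detected 0 were higher or lower. Of 4 neuronal and glial markers Ret was lower, with a bound of −0.54 that does not keep the call. Whether these cells bear on the other differences was not tested.

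Genes of the hnRNP family itself were higher in the Msi1 precipitation. Of 23 detected 15 (65.2%) were at least 2-fold higher and 1 (4.35%) lower, and 13 and 1 kept the call as bounds. The median was 1.71, 1.15 with bounds, and 0.85 over the members above both floors, and 13 of the 23 were above the hnRNP floor. Of the 12 in the highest input bin 9 were higher, 75% beside 44.6% of all genes there. Hnrnpc read 9.04 in Msi1, 3.45 in hnRNP, 3.84 in IgG and 6.80 in input and was at least 14.7-fold higher in Msi1. Hnrnpa2b1 (3.35), Syncrip (3.18) and Hnrnpab (2.66) were above both floors, and Hnrnpk and Hnrnpu had bounds of 2.15 and 2.70. Hnrnpul1 and Hnrnpa0 differed by 0.02 and 0.06, and Ptbp1 was the lower member, with a bound of −1.84 on 1 of its 2 probe sets.

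Of 31 splicing factor genes detected 14 (45.2%) were higher and 2 (6.45%) lower, and 13 and 2 kept the call as bounds (median 0.85, or 0.54 with bounds). Beside Snrpe, the higher genes included Srsf5 (3.67) and Srsf2 (3.43), which encode SR proteins, and Srsf10, Srsf1 and the splicing factor 3b subunit gene Sf3b1 with bounds of 3.73, 3.69 and 2.26. The other probe sets of Srsf5 and Srsf10 differed by 1.64 and 1.03. Srsf3 read 9.79 in Msi1, 6.03 in hnRNP, 5.70 in IgG and 9.29 in input, and its 3 probe sets differed by 3.76, 4.37 and −2.40. The lower ones were Rbm25, with the disagreeing probe sets given above, and the core protein gene Snrpd2. Snrpd2 read 8.45 in hnRNP and 8.17 in IgG and differed by −1.43, and its 4 other probe sets ran from −1.17 to 0.84.

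**Figure D4:**
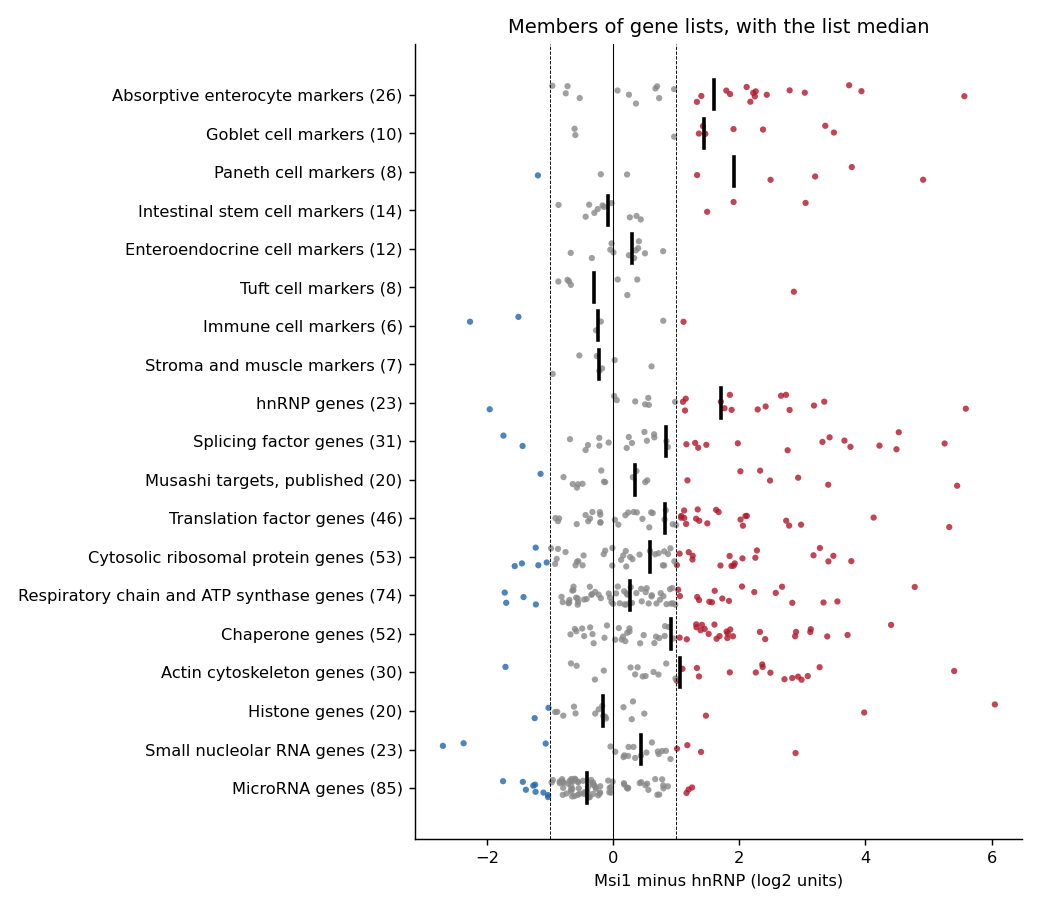
Msi1 minus hnRNP difference (log2 units) of each detected member of 19 gene lists, 1 point per gene, with the number detected in brackets and a black bar at the list median; differences are as measured, with no value raised to a floor, dashed lines mark 2-fold, and red and blue points lie past it. Medians of hnRNP genes (1.71) and enterocyte markers (1.60) lie right of the 2-fold line, and microRNA genes (−0.41) have the lowest median shown.

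Published Musashi targets were spread over both directions. Of 20 detected 7 (35.0%) were at least 2-fold higher and 1 (5%) lower, and 6 and 0 kept the call as bounds (median 0.34, or 0.094 with bounds). Besides Cdkn1b, the BMP receptor gene Bmpr1a read 6.99 in Msi1, 3.58 in hnRNP, 4.30 in IgG and 8.08 in input (at least 3.53-fold), and the TGF-beta receptor gene Tgfbr1 read 6.36, 3.43, 3.44 and 5.90 (at least 2.29-fold). The tetraspanin gene Tspan3 had a bound of 1.93, Numb one of 1.47 (at least 2.77-fold) and the Wnt antagonist Apc one of 0.92, which does not keep its call. Msi1 itself read 8.09 in Msi1, 6.07 in hnRNP, 8.14 in IgG and 12.16 in input, so its difference of 2.02 came with an IgG signal as high as that of Msi1. Msi2 differed by 0.37. The cyclin Ccnd1 (−0.12), Myc (−0.19), Cdk6 (−0.14), Notch1 (0.31), Ptprf (0.51), Dll1 (−0.55), Ikzf2 (−0.48), Smad3 (−0.57), Numbl (−0.64) and Cdkn2a (−0.78) differed by less than 2-fold, and Jag1 changed sign when raised to the floor. Robo3, an axon guidance receptor gene, was the lower target, with a bound of −0.84 that does not keep the call and an input signal of 3.63 below the floor.

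Of 18 Musashi and related RNA-binding protein genes 8 were higher and 1, Igf2bp1, lower, and 6 and 0 kept the call as bounds. The translational repressor gene Pum2 (1.99), the cold-shock gene Rbm3 (2.38) and Fxr1 (2.09) are given as bounds. Of 27 cell cycle genes 8 (29.6%) were higher and 3 (11.1%) lower, and 7 and 3 kept the call. Beside Cdkn1b these were led by the replication clamp gene Pcna, which read 9.12 in Msi1, 4.46 in hnRNP, 4.63 in IgG and 9.83 in input. Its bounds were 3.96 and, on the other probe set, 5.64. The cyclin genes Ccnd2 and Ccna2 were at 2.51 and a bound of 1.46. The mitotic kinase gene Plk1 (bound −1.22), the helicase gene Mcm5 (−1.13) and Cdk1, at the threshold, were lower. The median of the list, −0.03, had no settled sign.

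Signalling pathways contained single genes far higher in Msi1 around medians close to 0. Of 25 Wnt pathway genes 6 were higher and 3 lower, and 4 and 2 kept the call as bounds. The casein kinase gene Csnk1a1 and beta-catenin, Ctnnb1, had bounds of 3.23 and 1.90 and the receptor gene Fzd5 was at 1.77, against Lef1 (−1.06) and Wnt6 (−1.04), while the bound of Fzd7 was −0.61. Of 25 Notch pathway genes 3 were higher and 2 lower, and 2 and 0 kept the call. Those kept were Numb and the protease gene Adam10 (bound 1.11), which sheds the receptor. The bounds of the related protease gene Adam17 (0.62), the ligand gene Dll4 (−0.87) and the glycosyltransferase gene Mfng (−0.84) were under 2-fold. Of 23 TGF-beta and BMP pathway genes 7 were higher and 2 lower, and 3 and 0 kept the call, with bounds of 0.68 for the ubiquitin ligase gene Smurf2, −0.60 for the antagonist Nog and −0.87 for the ligand gene Tgfb1. Of 24 PI3K and mTOR pathway genes 4 were higher and 1 lower, and 3 and 1 kept the call, led by the kinase gene Pdpk1 (bound 1.46), with Sesn2 at −1.05. Medians of these 4 lists lay between −0.16 and −0.06, and those of the last 3 were above 0 after median centring and loess centring.

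Genes of protein synthesis and folding were higher in part. Of 52 chaperone genes 25 (48.1%) were higher and 0 lower, and 16 kept the call as bounds. The median was 0.92, or 0.43 with bounds, and 16 of the 52 were above the hnRNP floor. The endosomal Dnajc13 and the Hsp90 genes Hsp90aa1 and Hsp90b1 had bounds of 3.70, 3.58 and 3.27. Dnajc13 has 15 probe sets, and on the others the difference was smaller, from −0.20 to 2.76. Of 46 translation factor genes 20 (43.5%) were higher and 0 lower, and 12 kept the call (median 0.83, or 0.35 with bounds). Eif3e read 8.39 in Msi1 and 3.07 in hnRNP, and its bound was 3.23 beside 3.19 for Eif4g2. Of 39 proteasome genes 13 (33.3%) were higher and 1 lower, and 7 and 0 kept the call, with Psma3 at a bound of 2.64. In the highest bin of input signal 77.3% of chaperone genes, 43.5% of translation factor genes and 38.1% of proteasome genes were higher, beside 44.6% of all genes there.

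Cytosolic ribosomal protein genes went both ways. Of 53 detected 18 (34.0%) were higher and 5 (9.43%) lower, 16 and 5 kept the call as bounds, and the median of 0.59 became −0.04 with quantile normalization. Of the 41 in the highest bin of input signal 39.0% were higher, beside 44.6% of all genes there. Rps6 read 9.90 in Msi1, 6.48 in hnRNP, 6.41 in IgG and 11.47 in input, and 6 of its 7 probe sets were higher in Msi1, with −1.36 on the other. Rpl23 (3.28) and Rps12 (3.18) and, as bounds, Rps7 (3.50) and Rpl34 (2.90) were likewise higher. Rps7 had probe sets at 0.59 and −2.34 as well, and the 6 other probe sets of Rps12 ran from −1.19 to 1.72. Rps28 and Rpl19 were lower (−1.18 and −1.44) and read 9.18 and 8.31 in IgG, above their input signals of 6.93 and 7.09. The other probe sets of Rpl19 above a floor differed by 1.11, 0.95 and 0.10, and those at −1.70 and 0.45 were below both floors. The 4 other probe sets of Rps28 were all higher in Msi1, so for both genes the lower call rests on 1 probe set. These genes have many processed copies, so signals may be shared between them.

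Of 74 respiratory chain and ATP synthase genes 17 (23.0%) were higher and 4 (5.41%) lower, and 15 and 4 kept the call as bounds. Of the 46 in the highest bin of input signal 34.8% were higher, beside 44.6% of all genes there. Beside Cox7b, the complex III gene Uqcrb (2.84) and the complex I gene Ndufv2 (bound 2.90) were higher and Ndufb7 (bound −1.20) lower. Of 64 mitochondrial ribosomal protein genes 9 (14.1%) were higher and 3 (4.69%) lower, and 3 and 3 kept the call. Of 30 actin cytoskeleton genes 16 (53.3%) were higher and 1 (3.33%) lower, with the same counts as bounds (median 1.06). In the highest bin of input signal, 58.3% of 24 actin cytoskeleton genes were higher, beside 44.6% of all genes. The cofilin gene Cfl2 was at 3.09, the microvillus bundling gene Pls1 at 2.99, Tmsb4x at a bound of 2.63 and profilin, Pfn1, at −0.67. Of 55 calmodulin and phosphatase genes 19 (34.5%) were higher and 2 (3.64%) lower, and 13 and 1 kept the call. Solute carrier genes were close to all genes, with 33 of 176 (18.8%) higher and 13 (7.39%) lower, and 19 and 7 kept. The choline transporter-like gene Slc44a1 had a bound of 4.17 and Slc12a3 one of −0.59. Zinc finger protein genes had 19 of 186 (10.2%) higher and 17 (9.14%) lower, and 11 and 8 kept the call.

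Of 30 keratin and claudin genes 4 (13.3%) were higher and 4 lower, and 3 and 2 kept the call as bounds, with Krt19 at 1.13 and the claudin gene Cldn3 at −1.12. Of 20 immediate early and stress genes Atf3 (1.43) and Atf4, a stress response factor (bound 2.35), were higher and Gadd45b was lower (−1.02). Histone genes, whose replication-dependent messages lack poly(A) tails, had 3 of 20 higher and 2 lower, and 3 and 1 kept the call. H2bc4 read 9.13 in Msi1 and 3.08 in hnRNP, a bound of 3.96, and H2az2 and H1f2 were at a bound of 3.60 and at 1.47. H2ac15 (−1.24), bright in input at 10.66, read 6.00 in Msi1 and 7.24 in hnRNP.

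Among noncoding RNAs the direction was not uniform. Malat1, a long RNA of nuclear speckles, read 9.82 in Msi1, 7.60 in hnRNP, 5.99 in IgG and 9.43 in input, so both antibodies were above IgG. Of 9 named long noncoding RNA genes 5 were higher and 0 lower. Among them were Norad (1.55), Tug1 (bound 1.66) and Gas5, higher on the 1 of its 4 probe sets above a floor. The 265 long noncoding RNA genes of RefSeq lay the other way, with 4.91% higher and 15.5% lower. Detected receptor genes did likewise, with 4.40% higher and 19.8% lower. Of 23 small nucleolar and Cajal body RNA genes 4 were higher and 3 lower, and 1 and 3 kept the call as bounds (median 0.44). Snora23 had a bound of 2.36 and Snora21 one of 0.23, and Snord55 was lower (−1.07) beside Scarna17 and Snora3. Scarna13 read 8.18 in Msi1 and 7.83 in hnRNP against 5.63 in IgG, so that it, unlike Scarna17, differed little between the antibodies.

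MicroRNA genes lay lower in Msi1 than most genes. Of 300 on the array 85 were detected, 3 were at least 2-fold higher and 9 lower (10.6%), and the median was −0.41, close to the −0.47 of the 91 receptor genes above a floor, of which 4 were higher and 18 lower. None lay in the highest bin of input signal (0 of 85). With values raised to the floor, 1 remained past 2-fold higher and 6 lower. Raising left 6 receptors lower (6.59%) and 0 higher, so the 7.06% of microRNA genes still lower was close to the receptor share. The lower calls thus do not set microRNA loci apart from genes where no RNA is expected. Mature products are shown for 5 of the 6 lower microRNA loci and for the higher one, because their calls were kept. Sequences are from RefSeq (GRCm38.p6), with the seed, bases 2 to 8, in capitals:
mmu-miR-692: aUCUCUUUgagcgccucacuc
mmu-miR-501-3p: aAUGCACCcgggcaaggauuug
mmu-miR-501-5p: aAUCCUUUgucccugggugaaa
mmu-miR-423-3p: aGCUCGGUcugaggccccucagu
mmu-miR-423-5p: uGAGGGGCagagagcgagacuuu
mmu-miR-149-5p: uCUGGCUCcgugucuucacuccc
mmu-miR-149-3p: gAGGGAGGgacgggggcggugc
mmu-miR-185-3p: aGGGGCUGgcuuuccucuggu
mmu-miR-188-3p: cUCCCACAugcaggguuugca
mmu-miR-188-5p: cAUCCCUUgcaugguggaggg

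No seed occurs more than once among these sequences, so the loci belong to no shared seed family. The letters UAG, the core of the Musashi motif, were searched on the RNA strand and occur in 0 of the 10 sequences. Over the 17 mature sequences of all called loci matched in RefSeq 2 held them, beside 23.7% of 1674 mature mouse microRNAs. Mir692-1 read 7.98 in Msi1, 6.78 in hnRNP, 6.37 in IgG and 7.36 in input (2.29-fold higher). Mir185 read 7.54 in Msi1, 8.77 in hnRNP, 8.79 in IgG and 5.22 in input, and Mir149 read 5.61, 6.99, 6.88 and 5.03. In both the hnRNP and IgG arrays stood together above Msi1 and above input. Mir501, in contrast, read 6.05 in hnRNP and 5.02 in IgG, and Mir423 read 5.97 and 5.32. The probe sets may read longer transcripts of these loci as well as the mature products.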

How the data were processed

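RNA of the Msi1, hnRNP, IgG and input groups was read on 1 array each, grouped by the antibody in the labels. The log2 values were used as deposited by the authors, 1 per probe set. The submitters' processing notes name affy without a version. How background was corrected, how arrays were normalized and which logarithm was taken is not stated in the sources used here. The values span 1.07 to 14.3, from which base 2 was inferred, and every fold rests on it. The array standard deviations, from 1.17 to 2.01, differ, so the values were not quantile normalized.

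Of 34760 probe sets, 21640 with 1 symbol gave 19937 genes, and symbols were updated through Entrez for 21553. A gene with several probe sets was represented by the one whose mean across arrays was highest. A gene needed a signal above the floor (95th percentile of receptor probe sets) on either array. A gene was called at 2-fold. Folds with a dimmer value below its floor use the floor ("at least"). Array number limits precision.

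Named genes are the 15 highest and 12 lowest above both floors, the 10 brightest above 1 floor in each direction, up to 3 at each end of each of 36 lists (1 of them the receptors, which set the floor), Musashi targets, and those said to be chosen later, with Anpep, Apoa4, Apob, Ccna2, Dpp4, Hnrnpab, Hnrnpk, Hnrnpu, Lyz1, Mir185, Mttp, Norad, Pls1, Rpl23, Rps12, Rps28, Scarna13, Srsf1, Srsf2, Uqcrb, Epcam and Cdh1, chosen after their values were seen. Predicted genes, microRNA, Snora, Snord and receptor genes were not ranked. Members and lists were chosen with earlier results of these data known. The steps were tested on simulated data. Alternatives were scalings, floors, thresholds and probe set choices. Software was matplotlib 3.10.9, statsmodels 0.14.6, scipy 1.17.1, numpy 2.4.6 and pandas 2.3.3 under Python 3.11.15.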

Additional observations from a re-analysis of the deposited data

Results flagged for a closer look

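Probe sets that name no single gene also carried signal. Of 1321 with several symbols, 677 exceeded a floor, 168 (24.8%) exceeded hnRNP by 2-fold or more in Msi1 and 87 (12.9%) were lower, and 123 were at least 2-fold above both the hnRNP and the IgG array. Of 11799 with no symbol here, 4876 exceeded a floor, 1086 (22.3%) were higher and 1000 (20.5%) lower, and 763 were at least 2-fold above both hnRNP and IgG. Among probe sets with 1 symbol these shares were 18.6% and 7.94%. Of the several-symbol probe sets, 3 that name Ptp4a1, a protein tyrosine phosphatase gene, with 2 predicted genes were higher by 7.54, 6.41 and 6.29.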

How the results depend on the processing

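Of the alternatives, 5 can change the difference of 1 gene relative to others. Over 297 named genes these gave 1485 values, of which 1363 moved by less than 0.597, the SD of receptor genes, 112 moved further and 10 changed sign in a gene past 2-fold. Raising values to the floor took 34 of 221 such genes under 2-fold and changed the sign of 5 of 76 genes that were not past it, Jag1, Pla2g2a, Tac1, Il25 and Vim. Of genes past 2-fold, Mirlet7d became −0.070 with values raised. With the mean of probe sets Rbm25 became 0.17, Ppp2r5a 0.044, Nsa2 0.12, Slc25a5 1.38 and Rps28 1.51, and with the probe set brightest on input Rbm25 became 2.30, Rpl19 0.95, Slc25a5 4.0 and Rps28 1.97. Each of these reversals by probe set choice comes from probe sets of 1 gene that disagree.

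Counts depended on the scaling, floor and threshold, more so for lower genes. The 831 lower genes became 540 with median centring, 1684 with quantile normalization, 511 with loess centring, 414 with the floor at the 99th percentile, 1561 with no floor, 302 with detection on both arrays, 432 with values raised to the floor, 2407 at 1.5-fold and 90 at 3-fold. The 1863 higher genes became 374 with detection on both arrays, 1165 with values raised, 2832 at 1.5-fold and 1104 at 3-fold, and with the other settings stayed between 1665 and 2242. The percentage higher in the highest input bin was 49.2 with median centring, 47.7 with quantile normalization, 49.7 with loess centring, 56.8 with the higher floor, 34.5 with no floor, 24.7 with detection on both, 35.0 with values raised, 58.1 at 1.5-fold and 30.8 at 3-fold. The percentage lower in the lowest bin was 13.6 with median centring, 31.9 with quantile normalization, 12.4 with loess centring, 13.2 with no floor, 9.05 with detection on both, 6.98 with values raised, 45.7 at 1.5-fold and 2.48 at 3-fold. These percentages by bin were added to the alternatives after seeing the data.

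Of list medians, that of cytosolic ribosomal protein genes became −0.043 with quantile normalization. With the floor at the 99th percentile those of Paneth (2.85), stem (0.93), tuft (0.38) and immune (0.96) markers, cell cycle genes (1.14) and calmodulin and phosphatase genes (1.00) moved, and with no floor that of Paneth markers (0.93). With detection on both arrays, which leaves out genes seen with 1 antibody, hnRNP genes were at 0.85, splicing factors at 0.23, translation factors at 0.084, proteasome genes at −0.20, chaperones at −0.10 and Paneth markers, with Ang4 alone left, at −1.19. Except where stated, the cause was not tested. No paired analysis was possible because each group has 1 array and the labels carry no replicate numbers, and no array could be left out for the same reason. Signal near the floor limits most folds, since 1489 of the higher genes have no measured hnRNP level.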
